A study of Rattus norvegicus with 8 samples.

Results

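The complement system is a set of plasma and membrane proteins that tags cells and debris for removal and recruits phagocytes, and 9 of its genes, C1qa, C1qb, C1s, C2, C3, Cfd, Masp1, Cd55 and Serping1, were followed here in rat ovary. They were taken by symbol, as components and regulators of the cascade, and the rule used no measured value. Of the 9 genes, 8 had at least 1 probe set of their own on the array, 11 of the 31042 probe sets in all, and each was read from its probe set of highest mean on the single-animal arrays. C2 had none of its own: the 4 probe sets annotated to it also carry Cfb, its neighbour on chromosome 20, and they are given apart, without assigning them to either gene.

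Female Sprague-Dawley rats carried a silicone capsule that released 5α-dihydrotestosterone (DHT) for 12 weeks, as a model of polycystic ovarian syndrome, or an empty capsule (CTL), and ovarian RNA was taken at 15 weeks of age. Each group had arrays of 3 single animals and 1 array of the pooled RNA of those 3 animals, 8 arrays in all. The tissue was ovarian cortex, a mixture of cell types in which corpora lutea were seen in most CTL ovaries and in few or none of the DHT-treated ones, so that fewer cells of a type and less RNA per cell cannot be told apart. The values are log2 expression normalized by GCRMA, a method that corrects each probe for background by its base composition.

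The cascade starts in 3 ways. C1q, built from the chains C1qa, C1qb and C1qc, binds antibodies or dying cells and activates the proteases C1r and C1s (the classical pathway). Mannose-binding lectin, ficolins and collectins bind sugars and activate the MASP proteases (the lectin pathway). Cfd, also called adipsin, cleaves factor B (the alternative pathway), and all routes meet at C3. Serping1 blocks the C1 and MASP proteases, and Cd55 takes apart the enzymes that cleave C3. Liver makes most circulating complement, while C1q is made mainly by macrophages and related phagocytes.

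Between the 3 DHT and the 3 CTL animals, Masp1 was called higher in DHT-treated ovaries and no other measured member was called. To be called, a probe set had to differ by at least 2-fold, with p at most 0.01 and a false discovery rate of at most 10% in a limma fit over all 31042 probe sets. Called in this way were 1 of the 8 members, beside 1.03% of all probe sets, with 0.68% called higher and 0.351% called lower. Masp1 lay above every CTL animal in every DHT animal, as did 10.6% of all probe sets, and C1qa lay below every CTL animal in every DHT animal, as did 6.85% of all probe sets. In the other 6 members the groups overlapped. The median log2 fold change (DHT minus CTL) of the 8 members was 0.09, beside -0.03 over all probe sets. Below 0 were 4 of the 8, beside 62.5% of all probe sets. Without C3, which was near background (defined below) on all 8 arrays, the median of the other 7 was 0.29. Over all probe sets not near background on all 8 arrays it was 0.03.

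The arrays were not alike in RNA quality, and this touches each member. On the log2 scale the 3' control probe set of Gapdh exceeded the 5' one, a gap that grows where labelled RNA lacks 5' ends, by 0.39 and 0.62 on CTL replicates 1 and 2, 3.49 on CTL replicate 3 and 2.99 to 3.98 on the DHT replicates. CTL replicate 3 stood apart, with Pearson r across probe sets of 0.866 and 0.879 with the other CTL animals against 0.983 between those. With the DHT animals its r was 0.898 to 0.907, below that of CTL replicates 1 and 2 (0.927 to 0.959). Its median log2 value was the highest, 3.25 against 2.97 to 3.03 on the other arrays. The Gapdh value of CTL replicate 3 lay within the range of the DHT animals, but by these other values that array was not matched to them. Differences are therefore also given from CTL replicate 3 alone and from the mean of CTL replicates 1 and 2. Those differences have no test, and the part of RNA quality in any result was not tested. Near background means no higher than a level set on each array from 29 probe sets of olfactory, vomeronasal and taste receptors (their 95th percentile), which was 2.67 to 3.09.

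**Figure D1:**
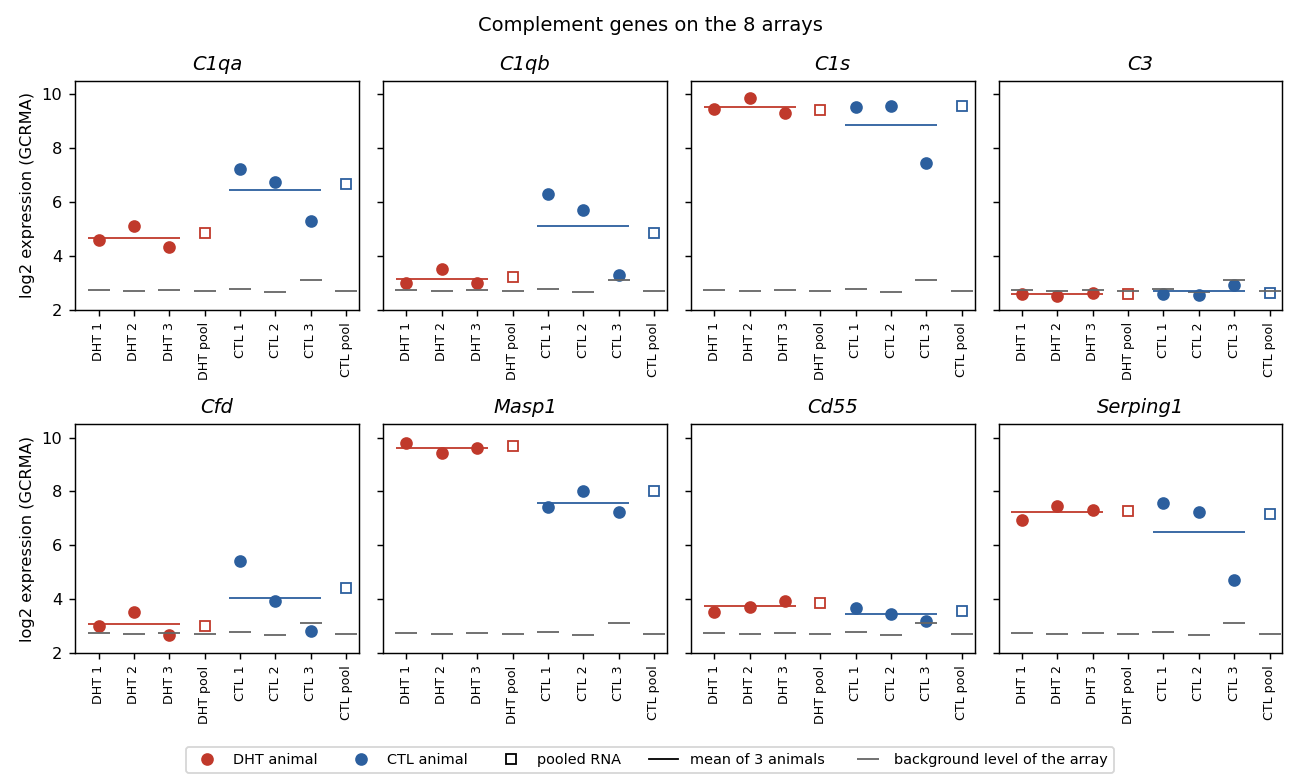
Log2 expression (GCRMA) of the 8 measured complement genes on each of the 8 arrays. Circles are single animals (red DHT, blue CTL), open squares pooled RNA, horizontal lines the mean of 3 animals and grey dashes the background level of each array. Masp1 is the gene whose DHT animals (9.45 to 9.81) lie farthest above the CTL animals (7.25 to 8.03), and CTL replicate 3 is the lowest CTL array in every panel but C3.

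Promoter windows of 3 members are shown, Masp1 as the gene that was called and C1qa and C1qb as neighbouring genes whose differences had the opposite sign. Each holds 300 bases, most of them upstream of the gene start, with sequences from RefSeq in build GRCr8. Of the 9 members, 6 matched the promoter table, and C1s, C2 and Serping1 did not. Capitals mark a match on either strand to GAGGAA, a core of sites for the myeloid factor PU.1, to AGAACA, one arm of the androgen receptor element, or to TATAAA, the TATA box. The windows are those of C1qa (minus strand, chr5:154419884-154420183), C1qb (minus strand, chr5:154407778-154408077) and Masp1 (plus strand, chr11:90839472-90839771).
C1qa: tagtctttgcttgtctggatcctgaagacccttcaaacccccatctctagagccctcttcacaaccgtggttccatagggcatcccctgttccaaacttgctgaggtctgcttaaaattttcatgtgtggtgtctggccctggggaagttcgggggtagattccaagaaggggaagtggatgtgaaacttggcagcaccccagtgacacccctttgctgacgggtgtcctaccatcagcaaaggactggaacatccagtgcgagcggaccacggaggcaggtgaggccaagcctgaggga
C1qb: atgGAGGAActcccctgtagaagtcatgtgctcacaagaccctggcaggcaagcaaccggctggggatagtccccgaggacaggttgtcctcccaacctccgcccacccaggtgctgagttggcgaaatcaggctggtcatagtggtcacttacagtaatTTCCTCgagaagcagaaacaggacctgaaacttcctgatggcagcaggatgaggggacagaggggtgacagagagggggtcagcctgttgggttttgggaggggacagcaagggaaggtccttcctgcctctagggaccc
Masp1: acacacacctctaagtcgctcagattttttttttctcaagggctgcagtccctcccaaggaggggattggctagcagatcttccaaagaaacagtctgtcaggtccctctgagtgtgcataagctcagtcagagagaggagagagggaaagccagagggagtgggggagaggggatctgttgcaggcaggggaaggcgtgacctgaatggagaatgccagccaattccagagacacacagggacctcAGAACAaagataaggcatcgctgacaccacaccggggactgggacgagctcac

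The C1qb window held 2 matches to GAGGAA, one of them on the opposite strand as TTCCTC, and that motif is found in 27.6% of 33469 promoters of the same length. The Masp1 window held 1 match to AGAACA across the gene start, a motif found in 20.7% of those promoters. None of the 3 motifs was matched in the C1qa window, and TATAAA, found in 14.2% of promoters, was matched in none of the 3 windows. These are matches of letters and carry no measurement of binding. The C1qb, C1qc and C1qa genes follow each other on chromosome 5 with no annotated gene between them.

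The C1q chains C1qa and C1qb both had negative log2 fold changes of similar size, and neither was called. C1qa, the A chain, read 4.57, 5.10 and 4.32 in the 3 DHT animals and 7.23, 6.74 and 5.31 in the 3 CTL animals. The highest DHT value therefore lay just under the lowest CTL value, that of CTL replicate 3, and the pooled arrays read 4.83 and 6.69. The mean was 4.66 ± 0.40 (SD, n = 3) in DHT animals and 6.43 ± 0.999 (SD, n = 3) in CTL animals, which gives a log2 fold change of -1.77 (standard error, SE, 0.55, limma adjusted p = 0.289) with a 95% confidence interval of -3.16 to -0.38.

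C1qb, the B chain, read 2.97, 3.50 and 2.98 in the DHT animals and 6.29, 5.71 and 3.29 in the CTL animals. CTL replicates 1 and 2 were far above all DHT animals, while CTL replicate 3 lay among them. Its mean was 3.15 ± 0.30 (SD, n = 3) in DHT animals and 5.10 ± 1.59 (SD, n = 3) in CTL animals, with a log2 fold change of -1.95 (SE 0.82, limma adjusted p = 0.452). The pooled arrays read 3.21 in DHT and 4.83 in CTL.

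Whether C1qa and C1qb were called depended on how CTL replicate 3 entered the fit. Without that animal C1qa fell by 2.33 (limma adjusted p = 0.0408) and C1qb by 2.85 (limma adjusted p = 0.0266) on the log2 scale, and both were called lower. In that fit 3 of the 8 members were called, Masp1 being the other one, beside 5.23% of all probe sets. Against CTL replicate 3 alone the differences were -0.65 for C1qa and -0.14 for C1qb, whose value on that array (3.29) was close to the background level there (3.09). With the pooled arrays counted as replicate 4 of each group, which repeats RNA of the same animals, C1qa and Masp1 were called, 2 of the 8 members beside 3.11% of all probe sets, and C1qb was not (limma adjusted p = 0.144). With array quality weights, which gave CTL replicate 3 little weight, C1qa (limma adjusted p = 0.0168), C1qb (limma adjusted p = 0.0109) and Masp1 were called, 3 of the 8 members beside 6.04% of all probe sets. The Gapdh gap as a covariate was decided on after seeing the data. With it the log2 fold change was -0.58 for C1qa (limma adjusted p = 0.058) and -0.15 for C1qb (limma adjusted p = 0.618). In that fit 18153 probe sets had p under 0.05 before adjustment, beside 3681 in the main fit. Its group difference rested mainly on CTL replicate 3, the only CTL animal with a Gapdh gap like those of DHT animals. It is therefore not a check apart from the comparison with CTL replicate 3 alone.

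C1qc, the third chain, is not a member and was looked up after its partners' values had been seen. It read 4.86, 5.12 and 4.52 in the DHT animals and 6.54, 6.38 and 3.41 in the CTL animals. All DHT animals lay between CTL replicate 3 and the other CTL animals, and the log2 fold change was -0.61 (SE 0.91, limma adjusted p = 0.896). The difference from CTL replicate 3 alone was 1.42, opposite in sign to that of C1qa and C1qb, whereas the difference from CTL replicates 1 and 2 was -1.63. C1qc was called lower with array quality weights and when CTL replicate 3 was left out, and called higher with the Gapdh covariate.

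Macrophage markers were examined beside the C1q chains. Of 16 markers fixed by name, 14 were measured, 13 of those had a negative log2 fold change, beside 62.5% of all probe sets, 1 was called lower, beside 0.351%, and the median was -0.67. The groups were apart in 7 of the 14, with DHT the lower, beside 6.85% of all probe sets. The log2 of their summed level was 9.95 to 10.41 in the DHT animals, 11.67 and 11.31 on CTL replicates 1 and 2 and 10.40 on CTL replicate 3, and none of the 14 was near background on all 8 arrays. All 7 measured luteal markers had negative log2 fold changes, again beside 62.5% of all probe sets, with a median of -2.92. The groups were apart in 6 of the 7, with DHT the lower, beside 6.85% of all probe sets, and 0 were called. None of the 7 was near background on all 8 arrays. The log2 of their summed level was 10.26 to 12.40 in DHT animals and 13.45 to 14.82 in CTL animals. The part of macrophage or luteal content in the C1q values was not tested.

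**Figure D2:**
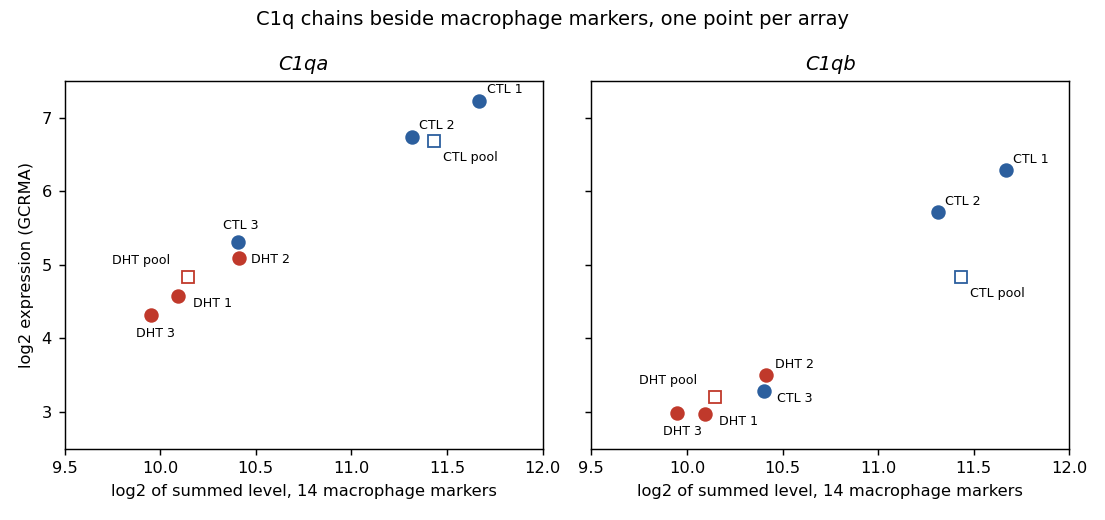
Log2 expression of C1qa and C1qb (vertical axes) against the log2 of the summed level of 14 macrophage markers (horizontal axes), 1 point per array, circles for single animals and open squares for pooled RNA. CTL replicates 1 and 2 lie at the upper right, at 11.67 and 11.31 on the horizontal axis, and CTL replicate 3 lies at 10.40 beside the DHT animals.

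C1s, the protease that C1q sets in motion, had overlapping values in the groups and was not called. It read 9.47, 9.88 and 9.30 in the DHT animals and 9.52, 9.58 and 7.46 in the CTL animals. CTL replicates 1 and 2 lay within the DHT range, and CTL replicate 3 lay far below it. The log2 fold change was 0.70 (SE 0.63, limma adjusted p = 0.896) with a 95% confidence interval of -0.91 to 2.30, and it was 0.00063 without CTL replicate 3.

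C1r, the partner protease encoded next to C1s on chromosome 4 and also named after its values had been seen, averaged 9.25 ± 0.22 (SD, n = 3) in the DHT animals and read 9.69, 9.23 and 9.03 in the CTL animals. Its groups overlapped and CTL replicate 3 lay within the DHT range, with a log2 fold change of -0.07 (SE 0.21, limma adjusted p = 0.907). The 1 probe set annotated to both C4a and C4b, the substrates of C1s, had a log2 fold change of -1.36 (SE 1.19; limma adjusted p = 0.896), with -2.52 against CTL replicates 1 and 2 and 0.98 against CTL replicate 3 alone.

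The 4 probe sets shared by Cfb, the alternative pathway protease, and C2, its classical pathway counterpart, all read lower on average in DHT-treated ovaries, and none was called. Probe set 1389470_at read 3.70, 4.41 and 3.86 in the DHT animals and 5.05, 7.12 and 6.26 in the CTL animals. The groups were apart there, with DHT the lower, and CTL replicate 3 stayed with its group. The log2 fold change was -2.15 (SE 0.56, limma adjusted p = 0.214), with -2.27 against CTL replicate 3 alone and -2.85 between the pooled arrays.

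The second of these, 1383391_a_at, read 5.00, 5.59 and 5.34 in the DHT animals and 6.01, 5.81 and 6.84 in the CTL animals, without overlap and with CTL replicate 3 the highest of all. Its log2 fold change was -0.91 (limma adjusted p = 0.356). The remaining pair, 1383392_at and 1393219_at, read 2.68 to 3.36 in DHT animals and 2.80 to 4.45 in CTL animals, with log2 fold changes of -0.67 and -0.76 (limma adjusted p = 0.743 and 0.497). Which of the 2 genes each probe set reads was not settled here.

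C3, the protein on which all pathways converge, was near background on all 8 arrays. It read 2.57, 2.51 and 2.62 in the DHT animals and 2.57, 2.56 and 2.91 in the CTL animals, so no fold is given. Of 7 liver markers, 5 were near background on all 8 arrays, albumin (Alb) among them.

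Cfd varied widely among the CTL animals and was not called. It read 3.01, 3.52 and 2.65 in the DHT animals and 5.40, 3.91 and 2.80 in the CTL animals, with 2.98 and 4.39 on the pooled arrays. CTL replicate 1 stood highest, and DHT replicate 3 and CTL replicate 3 were near background. The log2 fold change was -0.98 (SE 0.70, limma adjusted p = 0.781), and it was -0.29 without CTL replicate 1 and -1.59 without CTL replicate 3. Of 9 measured fat cell markers other than Cfd, which fat tissue makes in quantity, 5 were near background on all 8 arrays, among them Adipoq, Plin1 and Lep. The other 4 had log2 fold changes of -1.72 (Fabp4, a lipid carrier also found in endothelium and macrophages), -0.70 (Lipe), -0.09 (Cidea) and 0.16 (Pparg), and none of them was called. The log2 of the summed level of these fat cell markers was 6.21 to 6.33 in the DHT animals and 6.09 to 7.54 in the CTL animals, and their part in the Cfd values was not tested.

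Masp1 was the member with the smallest p. The gene encodes, by alternative splicing, lectin pathway proteases that cleave C2 and, as MASP-3, pro-factor D. It read 9.81, 9.45 and 9.61 in the DHT animals and 7.41, 8.03 and 7.25 in the CTL animals, with 9.70 and 8.02 on the pooled arrays. All DHT arrays lay above all CTL arrays by more than the range within either group, and CTL replicate 3 was close to CTL replicate 1. The mean was 9.62 ± 0.18 (SD, n = 3) in DHT animals and 7.56 ± 0.41 (SD, n = 3) in CTL animals, a fold of 4.17. The log2 fold change was 2.06 (SE 0.23, limma adjusted p = 0.0558) with a 95% confidence interval of 1.47 to 2.65.

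This value depended little on which controls were used, at 2.37 against CTL replicate 3 alone and 1.90 against CTL replicates 1 and 2. With the Gapdh covariate, where CTL replicate 3 again carried most of the comparison, it was 2.30 (limma adjusted p = 0.0157). In that fit 12.1% of all probe sets were called. Its call was lost with a mean-variance trend (limma adjusted p = 0.11), without CTL replicate 1 (limma adjusted p = 0.12) and without DHT replicate 1, 2 or 3 (limma adjusted p = 0.265, 0.228 and 0.201), where no probe set of the whole array was called. Over the fits that left out 1 animal the log2 fold change was 1.90 to 2.29. Of 4 theca cell markers 3 were measured, none of them near background on all 8 arrays. In Cyp17a1 and Gli1 the groups overlapped, with log2 fold changes of 2.65 (limma adjusted p = 0.418) and 0.26 (limma adjusted p = 0.478). Gli1 was near background on 5 of the 8 arrays. The third, Insl3, which encodes a hormone of theca cells, was called higher, 1 of the 3 beside 0.68% of all probe sets. Insl3 read 6.31, 6.19 and 6.99 in the DHT animals and 3.90, 3.46 and 2.79 in the CTL animals, with a log2 fold change of 3.11 (SE 0.36, limma adjusted p = 0.0575). The value of CTL replicate 3 was below the background level of that array (3.09). The log2 of the summed theca marker level was 8.38 to 10.85 in the DHT animals and 5.89 to 8.08 in the CTL animals. Of 6 measured granulosa cell markers 0 were called and none was near background on all 8 arrays. Amh, Inha and Inhbb, 3 of the 6, were higher in every DHT animal than in any CTL animal, as were 10.6% of all probe sets. In Foxl2, Nr5a2 and Cyp19a1 the groups overlapped, with log2 fold changes of 0.09, 0.22 and -2.91. The summed granulosa marker level on the log2 scale was 12.34 to 12.58 in the DHT animals and 11.17 to 11.93 in the CTL animals. The part of theca or granulosa cell content in the Masp1 values was not tested.

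A second Masp1 probe set, 1389543_at, was also called higher. It read 5.87, 5.55 and 6.49 in the DHT animals and 4.20, 4.51 and 3.85 in the CTL animals, without overlap, and had a log2 fold change of 1.78 (SE 0.30, limma adjusted p = 0.0949). The third, 1371116_at, was near background on all 8 arrays. Which of the transcripts of the gene each probe set reads was not determined.

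**Figure D3:**
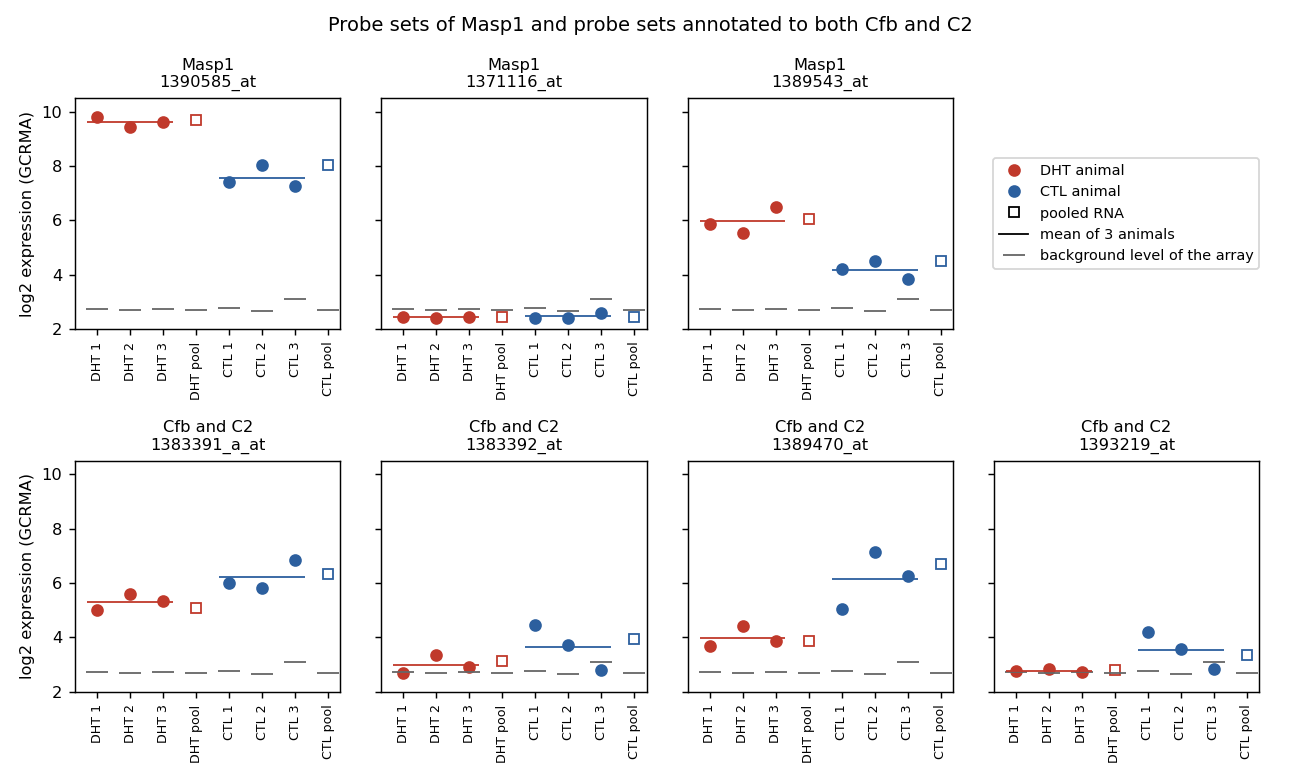
Log2 expression (GCRMA) on each of the 8 arrays for the 3 probe sets of Masp1 (top row) and the 4 probe sets annotated to both Cfb and C2 (bottom row). Circles are single animals, open squares pooled RNA, lines the mean of 3 animals and grey dashes the background level. Masp1 is higher in DHT animals at 2 of its 3 probe sets and near background at 1371116_at, and 1389470_at separates the Cfb and C2 signal of DHT animals (3.70 to 4.41) from that of CTL animals (5.05 to 7.12).

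The inhibitors gave no call. Cd55 read 3.52, 3.72 and 3.93 in the DHT animals and 3.68, 3.44 and 3.17 in the CTL animals, overlapping values with a log2 fold change of 0.29 (SE 0.17, limma adjusted p = 0.657). Its other probe set was near background on 7 of the 8 arrays.

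Serping1, the C1 inhibitor, repeated the pattern of C1s. It read 6.92, 7.44 and 7.32 in the DHT animals and 7.57, 7.25 and 4.71 in the CTL animals, so that CTL replicates 1 and 2 lay within or just above the DHT range and CTL replicate 3 lay 2.70 below their mean. The log2 fold change was 0.72 (SE 0.81, limma adjusted p = 0.896) with a 95% confidence interval of -1.33 to 2.77. It turned to -0.18 when CTL replicate 3 was left out and to -0.31 with array quality weights, and was 2.52 against CTL replicate 3 alone. With the Gapdh covariate Serping1 and C1s were called higher, at 2.45 (limma adjusted p = 0.0157) and 2.09 (limma adjusted p = 0.0153), which with Masp1 makes 3 of the 8 members beside 12.1% of all probe sets. That fit rested mainly on CTL replicate 3, against which alone C1s differed by 2.09. Among 8 stromal fibroblast markers 0 were called, none was near background on all 8 arrays and the median log2 fold change was 0.73. In 3 of the 8, Pdgfra, Dcn and Lum, the groups were apart with DHT the higher, beside 10.6% of all probe sets. Their summed level, as a log2 value, was 12.69 to 12.95 in the DHT animals, 12.94 and 12.37 on CTL replicates 1 and 2 and 10.64 on CTL replicate 3, where C1s and Serping1 were lowest too. That was not particular to stroma: CTL replicate 3 was also the lowest array for granulosa (11.17), theca (5.89) and red blood cell markers (4.63). Of the stromal markers, Pdgfra was lowest on CTL replicate 1 and Fbln1 on CTL replicate 2, and the others on CTL replicate 3. The part of stromal content in the values of C1s, Serping1 or Masp1 was not tested.

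**Figure D4:**
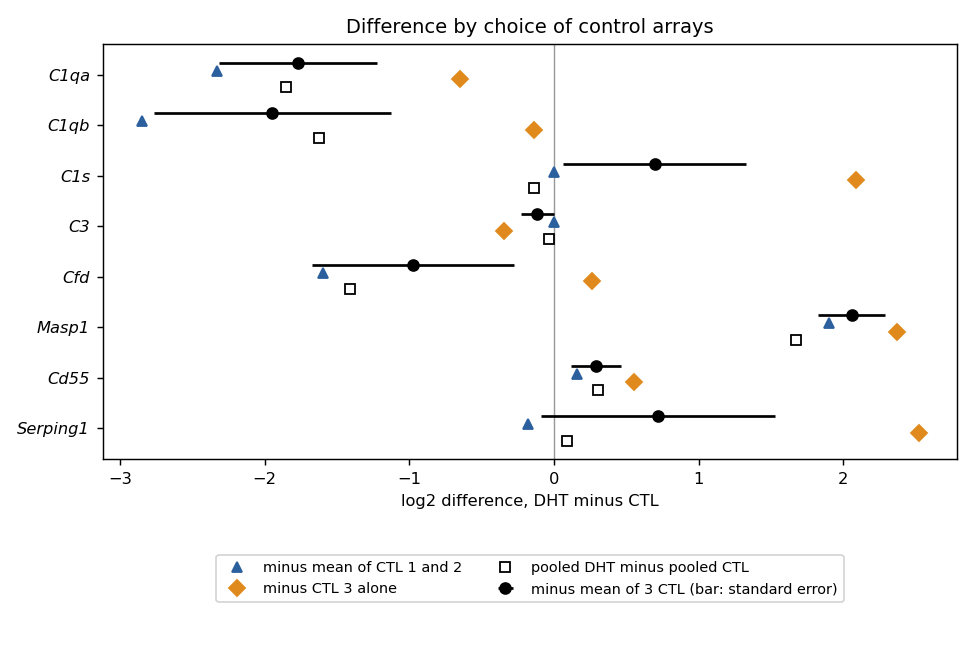
Log2 difference of the 8 measured members, DHT minus CTL, against the mean of 3 CTL animals (black circles, bars are standard errors), the mean of CTL replicates 1 and 2 (triangles) and CTL replicate 3 alone (diamonds), and between the pooled arrays (open squares). Masp1 lies between 1.68 and 2.37 by every choice, C1qa below 0 by every choice, and C1s runs from -0.14 to 2.09 depending on the control arrays. C3 was near background on all 8 arrays, so none of its symbols is a measured difference. CTL replicate 3 was near background for Cfd, so the diamond of Cfd is not a measured difference.

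Of 39 other complement genes listed by name, 30 were measured by a probe set of their own. Of the 30, 12 were near background on all 8 arrays, as were 33.7% of all probe sets. Called higher was 1 of the 30, beside 0.68% of all probe sets, and called lower were 0, beside 0.351%. The median log2 fold change was -0.05, beside -0.03 over all probe sets. The gene called was Vtn, vitronectin, a matrix and plasma protein that blocks the terminal complex. It read 5.04, 5.13 and 5.67 in the DHT animals and 4.03, 3.25 and 3.60 in the CTL animals, without overlap, with a log2 fold change of 1.65 (SE 0.27, limma adjusted p = 0.0892). Its call was lost after quantile normalization, with a mean-variance trend, with the Gapdh covariate and without CTL replicate 1, CTL replicate 2 or any DHT replicate. Masp2, the lectin pathway protease that cleaves C4, read 5.59, 5.65 and 5.43 in the DHT animals and 4.95, 4.99 and 5.05 in the CTL animals. Those groups were also apart. Their means differed by 0.56 (SE 0.08, limma adjusted p = 0.0745), which is under the 2-fold limit of a call. Among the 30 genes, the groups were apart with DHT higher in 2, Vtn and Masp2, beside 10.6% of all probe sets. With DHT lower they were apart in 2, Itgax and C5ar1, beside 6.85%. For C5ar1 the highest DHT animal (3.5485) was only just under the lowest CTL animal (3.5488).

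The 5 next genes by p were not called. Itgb2 and Itgax, the chains of complement receptor 4 of phagocytes, had log2 fold changes of -1.01 (limma adjusted p = 0.653) and -0.84 (limma adjusted p = 0.621). Against CTL replicates 1 and 2 these differences were -1.60 and -1.18, and with array quality weights Itgb2 was called lower. CTL replicate 3 read 3.03 for Itgb2 and 3.04 for Itgax, below the background level of that array. C5ar1, the receptor for C5a, had -0.60 (limma adjusted p = 0.594). Colec11, a collectin that binds sugars, had 0.94 (limma adjusted p = 0.667), with DHT replicate 3 at 5.72 and the other DHT animals at 4.15 and 3.67. C8g, a chain of the terminal complex, had -0.19 (limma adjusted p = 0.581). A pair of regulators outside that rule, named after their values had been seen, showed the low value of CTL replicate 3: Cr1l, a rodent inhibitor of C3 cleavage, read 6.26 there against 8.52 to 8.87 in the other animals, and Clu, clusterin, read 3.53 against 6.82 to 8.91.

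**Figure D5:**
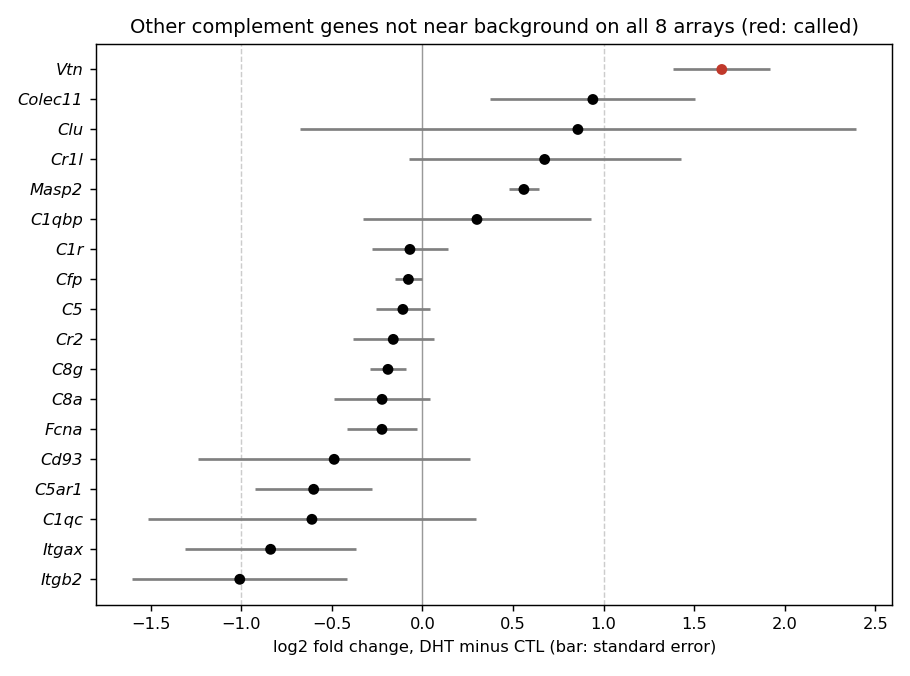
Log2 fold change, DHT minus CTL, with its standard error (bars) of the 18 other complement genes that were not near background on all 8 arrays. Dashed lines mark a 2-fold change, and Vtn, in red at 1.65, is the one called.

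The genes whose values over the 8 arrays were most like those of a member were found among 11016 genes by Pearson r, given as a description since the arrays share animals and CTL replicate 3 stands apart. For C1qa they were Pdlim7 and Ppcdc (r of 0.995 for both), for C1qb Vsir (0.996) and Cemip2 (0.994), and for Cfd Mfge8 and Plk2 (0.994 for both). For Masp1 they were Echdc2 (0.996) and Saal1 (0.995), for Cd55 Ahctf1 (0.985) and Tent4a (0.984), for C1s Tmem11 and Eif3a (0.995 for both) and for Serping1 Cab39 and Dennd4c (0.999 for both). C3 is left out here, since it was near background on all 8 arrays.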

How the data were processed

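Total RNA of ovarian cortex from 3 DHT and 3 CTL rats, and 1 pool per group, was hybridized to Affymetrix rat expression arrays. The authors normalized the arrays by GCRMA in R, and deposited 1 log2 value for each probe set and array, corrected for background and not centred by gene. Versions are not given in the sources used here. The 57 control probe sets were left out, and of the other 31042, 20826 carry 1 gene symbol in GEO's annotation of the array, 436 several and 9780 none here. Groups followed the sample titles. The titles do not mark a pool, and replicate 4 of each group was taken as the pooled array. Apart from the replicate number, no label tied an animal of one group to an animal of the other. DHT and CTL animals were compared by the moderated linear model of limma 3.58.1 (R 4.3.3), two-sided, with p adjusted by Benjamini-Hochberg across all 31042. The method was tested on simulated data with independent noise and, unlike these data, no array that stands apart. An exact permutation test of 3 animals against 3 cannot go below p = 0.1. The number of arrays limits the precision. The members, the lists and the alternatives were chosen with earlier results of these data known, and C2, Cfb, Masp1, C1qa and Vtn are also among the genes that the study selected on these samples, so their direction is not independent evidence. From the other complement genes, those called and the 6 with the smallest p were named, with exceptions marked. Alternatives were the pooled arrays as replicate 4, a replicate block, array quality weights, quantile normalization, a mean-variance trend, median scaling, omission of dim probe sets or of each animal in turn, other criteria, averaging the probe sets of a gene and, chosen after seeing the data, the Gapdh difference as a covariate and CTL replicate 3 as the only control. Figures used matplotlib 3.10.9.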

Additional observations from a re-analysis of the deposited data

How the results depend on the processing

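Under the main settings 1 member, 1 of the other complement genes and 320 of all probe sets were called. With array quality weights these were 3, 3 and 1874, where the estimate did not converge fully and CTL replicate 3 had a weight of 0.028 against 1.07 to 7.76 for the other animals. With a mean-variance trend they were 0, 0 and 61, and at a false discovery rate of 5% with no limit on fold or p they were 0, 0 and 29. At a false discovery rate of 10% with no such limit, 1 member, 2 other genes and 581 probe sets passed. With the pooled arrays as replicate 4 there were 2 members, 1 other gene and 966 probe sets, and after quantile normalization 1, 0 and 173. With the Gapdh covariate 3 members, 4 other genes (C1qc, Cr1l, Clu and C1qbp, all higher, and not Vtn) and 3747 probe sets were called. In that fit 18153 probe sets had p under 0.05 before adjustment, beside 3681 under the main settings. Leaving out 1 animal gave 0 to 3 members, 0 to 2 other genes and 0 to 1622 probe sets. The 0 calls without a DHT replicate stood beside 2529 to 2623 with p under 0.05 before adjustment. Median scaling, leaving out dim probe sets and averaging the probe sets of a gene left 1 member called.

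With the replicate block 0 members, 0 other genes and 0 probe sets were called by limma (adjusted p = 0.182 for Masp1), beside 3817 with p under 0.05 before adjustment. The deviations of same-numbered animals from their group means correlated at -0.074, 0.443 and 0.342 across probe sets. Not every animal correlated best with its own number. With 3 animals per group these correlations cannot show whether same-numbered animals were tied, and the sample titles do not say. The direction turned for Cfd with the Gapdh covariate (0.37) and for Serping1 with array quality weights (-0.31) and when CTL replicate 3 was omitted (leaving out 1 animal gave -0.18 to 1.25). The cause of these changes was not tested. The share of calls that were higher was 65.9% under the main settings, 50.3% after quantile normalization, 40.3% without CTL replicate 3 and 71.0% with the Gapdh covariate. Background limits C3, Cfd and C1qb: with a level 1 unit above each array's mode, C3 was near background on all 8 arrays, and Cfd and C1qb on 4 each.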

Other observations

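The arrays of pooled RNA can be set beside the log2 of the mean linear value of the 3 animals they were made from. For the CTL pool these were 6.69 against 6.63 for C1qa, 4.39 against 4.42 for Cfd, 7.18 against 6.94 for Serping1 and 8.02 against 7.60 for Masp1, while C1qb read 4.83 against 5.55 and C1s 9.56 against 9.13. For the DHT pool the 8 measured members read within 0.15 of that value.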
